A study of Mus musculus with 28 samples.

Results

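The mitochondrially encoded genes are the genes carried by the small circular genome inside the mitochondrion. They were taken as every gene of the deposited table whose symbol starts with mt-, which gave 37 of 54354 genes, namely 13 protein-coding genes, 2 ribosomal RNA genes and 22 transfer RNA genes. The study sequenced RNA of Lgr5-GFP reporter mice, whose green fluorescence follows the activity of Lgr5, a receptor gene of intestinal stem cells, and its title concerns dietary cysteine and intestinal stemness. Small intestinal cells of high or low Lgr5 reporter level were compared on a control diet and on a cystine diet, cystine being a pair of cysteine molecules joined by oxidation. The 4 groups are Lgr5-high control, Lgr5-high cystine, Lgr5-low control and Lgr5-low cystine, with 7 libraries each, and all carry the reporter. The sources used here give no age, sex, strain, pooling of animals or length of the diets. Nor do they tie each library to an animal of its own, so a p-value reflects library-to-library spread, which may be technical. The extraction protocol speaks of organoids while the tissue label reads small intestine, and which of them supplied the RNA is not given.

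The mitochondrial genome encodes core subunits of 4 of the respiratory complexes, while the remaining subunits and all proteins that copy, transcribe and translate it are made from nuclear genes. Complex I (NADH dehydrogenase) takes the Nd subunits, complex III takes cytochrome b, complex IV (cytochrome c oxidase) takes the Co subunits and the ATP synthase takes Atp6 and Atp8. Both strands are transcribed as long precursors that are cut at the transfer RNAs, and all of the messenger RNAs except mt-Nd6 are read from the same strand. Intestinal stem cells are known to rely on mitochondrial respiration, and their neighbours differ from them in metabolism.

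Library size ranged from 2.75 to 21.5 M counts (M, mega), with 7 libraries under 5 M, with group means between 6.84 M in Lgr5-high cystine and 14.8 M in Lgr5-high control libraries. The summed level of 5 intestinal stem cell markers, which include Lgr5 and Olfm4, was 3246 to 6852 CPM (counts per 1000000, with library sizes adjusted by TMM factors) in Lgr5-high control and 659 to 2474 CPM in Lgr5-low control libraries. On the cystine diet the same sums were 3726 to 7283 and 931 to 2156 CPM. By the test used below, 5 of these 5 markers on control and 4 on cystine were higher in Lgr5-high cells. Of all tested genes, 0.784% on control and 1.10% on cystine were higher. All 3 smooth muscle markers had a median of 0 in both Lgr5-low groups. The sex of the animals is not labelled, and Xist, the RNA of the inactive X chromosome, was above 50 CPM in 18 libraries (the Xist-high class) and at or below it in 10 (the Xist-low class), which were control replicates 1 to 3 and cystine replicates 1 and 2 of both populations.

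Several sequences show how the mitochondrial genes lie against each other and against their nuclear copies, and why some counts cannot be read gene by gene. All come from GENCODE M21 transcripts on GRCm38 and are written 5′ to 3′. The first pair shows mt-Co1 (chrM:6381-6440, plus strand) beside Gm29216 (chr1:24616138-24616197, minus strand), an unprocessed pseudogene copied from it, with capitals for the bases where an identical run begins. That run covers 479 bases, from position 1067 of mt-Co1 to its last base at 1545, which is 31.0% of mt-Co1 and 97.4% of the 492 bases of Gm29216. The base just before it differs by A1066T, counted from the first base of mt-Co1.
mt-Co1: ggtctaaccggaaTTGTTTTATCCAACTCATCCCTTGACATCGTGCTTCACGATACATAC
Gm29216: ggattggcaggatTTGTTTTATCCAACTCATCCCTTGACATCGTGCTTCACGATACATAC
The next sequence shows the end of mt-Atp8 running into the start of mt-Atp6 (chrM:7912-7984), with capitals for the 43 bases that belong to both genes. Reads from those bases fit either gene.
mt-Atp8 to mt-Atp6: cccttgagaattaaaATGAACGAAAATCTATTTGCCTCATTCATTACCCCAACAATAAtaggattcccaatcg
The last pair shows the first 60 bases of mt-Nd6 (chrM:14011-14070, minus strand) and of its neighbour mt-Cytb (chrM:14145-14204, plus strand), with every G in capitals, because mt-Nd6 is the messenger RNA read from the other strand. The stretch of mt-Nd6 holds 12 G bases and that of mt-Cytb holds 3.
mt-Nd6: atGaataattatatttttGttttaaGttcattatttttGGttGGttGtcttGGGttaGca
mt-Cytb: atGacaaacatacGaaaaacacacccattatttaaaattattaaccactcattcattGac

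Over the whole gene, mt-Nd6 was 28.1% G, against 5.88% in mt-Atp8 and 16.1% in mt-Co1, the lowest and the highest of the other 12 messenger RNAs.

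Of the 37 genes, 15 passed the low-count filter, namely all 13 protein-coding genes and both ribosomal RNA genes. Transfer RNA genes were nearly uncounted: mt-Ti had 4 counts in 3 libraries, mt-Tv had 3 counts in 3 libraries and mt-Td had 1 count, and the other 19 were at 0 in all 28 libraries. A count of 0 allows up to 3 counts, which is 0.139 to 1.09 CPM depending on the library, for counting error only. The libraries were selected for poly(A) tails, so levels of RNAs that lack a long tail are not measured on the same footing as messenger RNAs.

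The level per length, in CPM per kilobase of gene, spanned a wide range among genes cut from the same precursors. The 3 highest were mt-Atp6 at 51423 ± 12426 (SD, n = 28 libraries), mt-Cytb at 51266 ± 13107 and mt-Co3 at 48832 ± 13849, and their ranges over libraries overlapped. Their order within each library was not compared. They were followed by the large ribosomal RNA mt-Rnr2 at 13081 ± 6016, the small ribosomal RNA mt-Rnr1 at 10679 ± 6335 and mt-Co2 at 8834 ± 1972 CPM per kilobase, which again overlapped. Levels per length then fell through mt-Nd1 at 6208 ± 1690, mt-Nd4 at 2517 ± 559, mt-Nd2 at 1696 ± 300 and mt-Atp8 at 1280 ± 300. The lowest were mt-Co1 as listed at 621 ± 161, mt-Nd4l at 401 ± 217, mt-Nd3 at 271 ± 67.7, mt-Nd5 at 163 ± 42.7 and mt-Nd6 at 88.2 ± 86.1 CPM per kilobase. The rank of mt-Co1 depends on how reads shared with Gm29216 were assigned, since with Gm29216 added it was 8379 ± 3514.

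**Figure D1:**
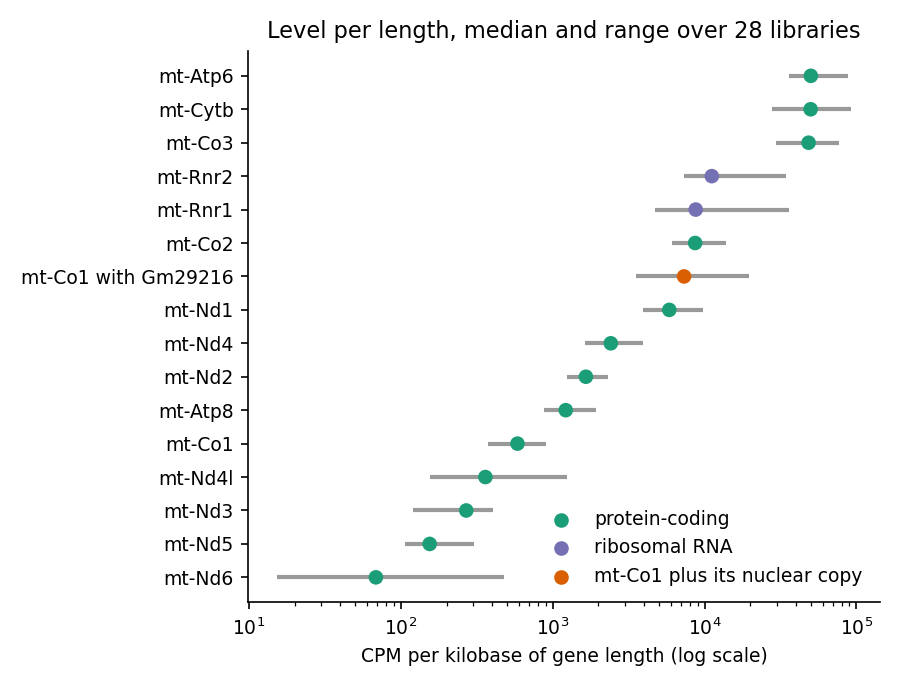
Level of each tested mitochondrially encoded gene in CPM per kilobase of gene length, on a log axis. Points are medians and lines run from the lowest to the highest of 28 libraries, and the entry for mt-Co1 with Gm29216 sums both genes over the length of mt-Co1. mt-Atp6, mt-Cytb and mt-Co3 stand together at the top and mt-Nd6 is at the bottom.

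By share of the mitochondrial counts, mt-Cytb held 32.4 ± 4.18% (SD, n = 28), mt-Co3 21.0 ± 2.94% and mt-Atp6 19.3 ± 1.36%, and the 2 ribosomal RNAs held 11.2 ± 3.29% (mt-Rnr2) and 5.52 ± 2.60% (mt-Rnr1). Genes that share an RNA were given unequal counts. mt-Atp8 and mt-Atp6 lie on 1 messenger RNA, and the counts of mt-Atp6 were 105 to 157 times those of mt-Atp8, with a median of 137. mt-Nd4l and mt-Nd4 also lie on 1 messenger RNA with 7 shared bases, and the counts of mt-Nd4 were 12.3 to 75.6 times those of mt-Nd4l, with a median of 32.3. These ratios are of raw counts, and mt-Atp8 (204 bases) and mt-Nd4l (297 bases) are the shortest of the 13 coding genes. They cannot be read as different levels of the same RNA. Within groups, mt-Nd2 varied least, with an SD of 0.17 on the log2 CPM scale, and mt-Nd6 and mt-Rnr1 varied most, at 0.84 and 0.67.

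Nuclear copies bear on several of these values. A search of nuclear transcripts against the mitochondrial ones, at 95% identity or more over 80% or more of the copy, found 11 copies. The 5 copies of 100% identity, Gm10925 (mt-Atp6), Gm28661 (mt-Co2), Gm28437 (mt-Co3), Gm28439 (mt-Nd4) and Gm10222 (mt-Nd4l), were listed at 0 in all 28 libraries. Gm29216 (chr1:24615706-24616197) was the exception among the 11 in its level: it held 5.0 to 33.7 times the counts of mt-Co1 (chrM:5328-6872). The mean level of Gm29216 was 10612 ± 3135 CPM (SD, n = 7) in Lgr5-high control, 17174 ± 7128 in Lgr5-high cystine, 10660 ± 3498 in Lgr5-low control and 9503 ± 3799 CPM in Lgr5-low cystine libraries. The corresponding values for mt-Co1 were 880 ± 187, 1093 ± 195, 977 ± 264 and 885 ± 317 CPM. With Gm29216 added, mt-Co1 moved from 621 ± 161 to 8379 ± 3514 CPM per kilobase, between mt-Co2 and mt-Nd1. The authors' quantification divided reads of the 479 shared bases between the pair by a model, so neither gene's level can be taken alone.

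The ratio of Gm29216 to mt-Co1 counts followed the Xist classes. It was 13.2 to 33.7, with a median of 14.8, in the 18 Xist-high libraries and 5.0 to 10.4, with a median of 7.48, in the 10 Xist-low libraries, and the classes did not overlap in either population. In Lgr5-low libraries the share of mt-Co3 in the mitochondrial counts also separated the classes, at 22.9% to 28.5% in 5 Xist-low and 17.0% to 20.8% in 9 Xist-high libraries, and it was the only one of the 15 genes whose share did so in that population. In Lgr5-high libraries no share of a single gene separated them. In Lgr5-high libraries the levels of mt-Co2 (7763 to 9429 against 5203 to 7179 CPM), mt-Nd1 (7717 to 9316 against 4649 to 7677 CPM) and mt-Nd4 (4179 to 5410 against 3206 to 4121 CPM) were higher in all Xist-low than in all Xist-high libraries. In Lgr5-low libraries the same held for mt-Co3 (40360 to 59936 against 23205 to 33493 CPM) and mt-Atp8 (258 to 333 against 180 to 247 CPM). By CPM, Xist-low libraries thus lay wholly above Xist-high ones for 3 of 15 members in Lgr5-high cells, where 0.416% of all tested genes did, and for 2 of 15 in Lgr5-low cells, where 2.79% did. No member lay wholly below, where 0.584% and 2.44% of all genes did. The sum of 4 Paneth cell markers moved with the classes too. In Lgr5-high libraries it was 14868 to 50862 CPM in Xist-low and 43816 to 121181 CPM in Xist-high libraries, and in Lgr5-low libraries 11186 to 32905 and 24327 to 74990 CPM. Its part in the mitochondrial values was not tested. The classes were formed from the data and also differ in replicate number, so sex, litter and preparation cannot be told apart, and no test was made.

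**Figure D2:**
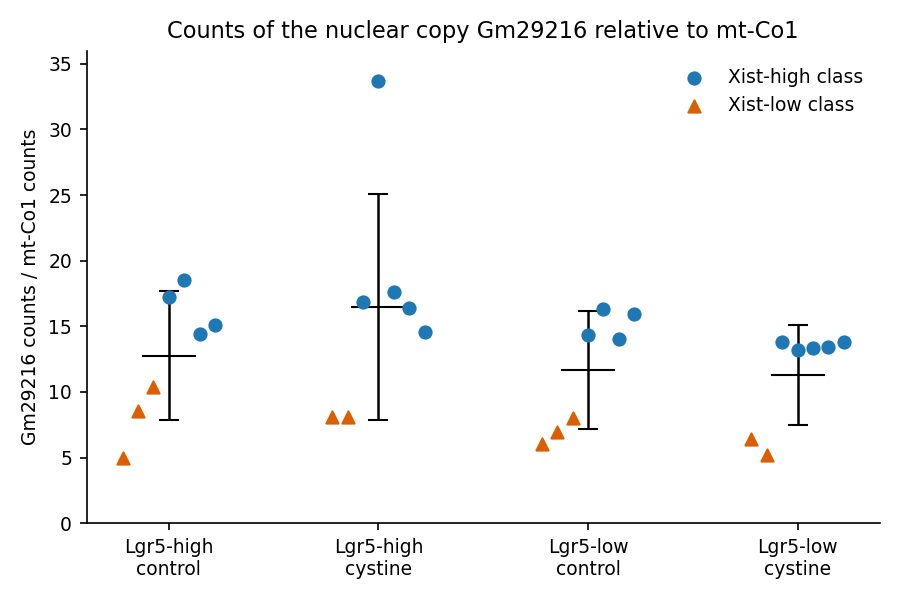
Counts of the nuclear copy Gm29216 divided by counts of mt-Co1 in each of 28 libraries by group. Circles are Xist-high and triangles Xist-low libraries, and bars give the mean ± SD of 7 libraries. In each group all circles lie above all triangles, and 1 Lgr5-high cystine library reaches 33.7.

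Together, the mitochondrially encoded genes made up 14.2% to 25.5% of all counts of a library. The share was 19.1 ± 3.16% (SD, n = 7) in Lgr5-high control libraries, with a lowest, median and highest value of 15.3%, 17.7% and 23%. It was 20.3 ± 3.18% in Lgr5-high cystine libraries, from 15.9% through 20.5% to 25.5%. In Lgr5-low control libraries it was 16.9 ± 1.5%, from 14.8% through 16.9% to 19.2%, and in Lgr5-low cystine libraries it was 15.5 ± 1.71%, from 14.2% through 14.9% to 19.2%. The Lgr5-high groups reached higher shares, and all 4 groups overlapped. The ranges of the Xist classes overlapped in both populations. Their medians were 22.8% (Xist-low) and 17.4% (Xist-high) in Lgr5-high and 17.96% and 15.4% in Lgr5-low libraries. In Lgr5-high control, Xist-low libraries held 21.2% to 23% and Xist-high ones 15.3% to 17.7%, and the group mean lay between these ranges. In Lgr5-low control the classes held 15.6% to 19.2% and 14.8% to 17.6%. A share describes the RNA of a pool, and fewer cells of a type and less RNA per cell cannot be told apart in it.

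**Figure D3:**
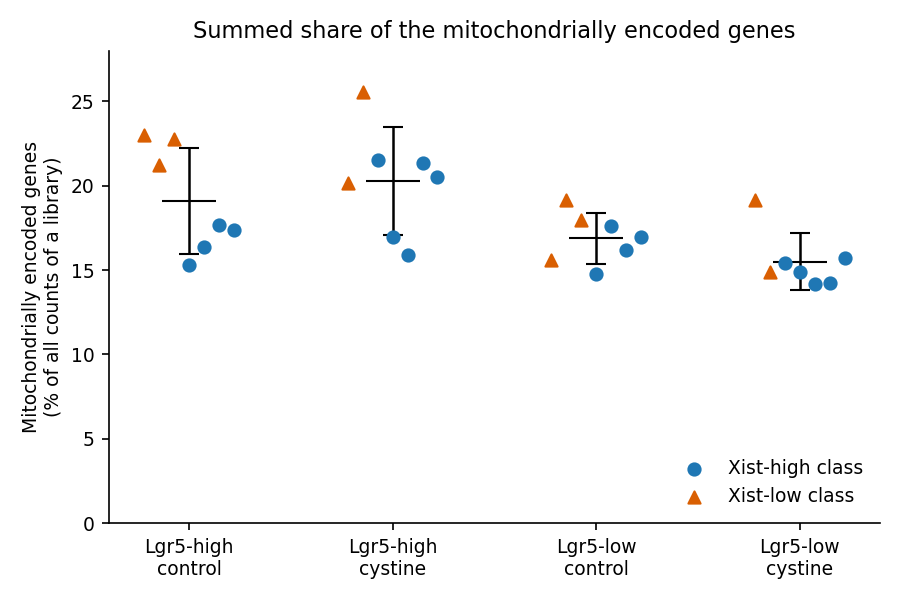
Summed counts of the 37 mitochondrially encoded genes as a percentage of all counts, 1 point per library, with the mean ± SD of 7 libraries per group. Circles are Xist-high and triangles Xist-low libraries. The Lgr5-high groups spread from 15.3% to 25.5% and the Lgr5-low groups from 14.2% to 19.2%.

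The share was compared without a test, since the sum is a score over chosen genes. On the control diet, Lgr5-high exceeded Lgr5-low by 2.21 ± 1.32 percentage points (SE), with 5 of 7 Lgr5-high libraries above the Lgr5-low median. On the cystine diet it exceeded it by 4.78 ± 1.36 percentage points, with 7 of 7 above the median. The protein-coding genes carried most of this, with 4.20 ± 1.02 percentage points against 0.575 ± 0.699 for the ribosomal RNAs. Cystine against control differed by 1.19 ± 1.69 percentage points in Lgr5-high and by -1.38 ± 0.860 in Lgr5-low libraries, and the difference between these diet effects was 2.57 ± 1.90. With the nuclear copies added, the population differences were 2.12 ± 1.27 on control and 5.40 ± 1.31 on cystine. The diet differences were then 1.75 ± 1.60 in Lgr5-high and -1.54 ± 0.874 in Lgr5-low libraries, and 3.29 ± 1.83 between the diet effects. Depth moved with the share: in Lgr5-high cystine libraries the 3 under 5 M counts held 21.4% to 25.5% and the other 4 held 15.9% to 20.5%, and without the 7 libraries under 5 M the differences were 3.49 percentage points between populations on cystine and -0.0584 for diet in Lgr5-high. Its part in the share was not tested. In the Xist-low class the population difference on the control diet was 4.75 percentage points and in the Xist-high class 0.295. The Xist-low class held more control than cystine libraries, so the classes also enter the diet differences. In Lgr5-high cystine, Xist-low libraries held 20.2% and 25.5% and Xist-high ones 15.9% to 21.5%. In Lgr5-low cystine the classes held 14.9% and 19.2%, and 14.2% to 15.7%. Their part in the diet differences was not tested.

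For single genes, levels were compared with the quasi-likelihood test of edgeR over 12495 genes with Benjamini-Hochberg adjusted p-values. Lgr5-high against Lgr5-low on the control diet asks which genes differ with the reporter level. Of the 15 tested members, 13 had a positive log2 fold change, with a median of 0.30 beside -0.01 over all tested genes, and 1 member, mt-Nd4l, passed the threshold of 0.05, where 1.80% of all genes did. No member's groups were free of overlap, where 0.472% of all genes were higher and 0.488% lower without overlap. mt-Nd4l, a small membrane subunit of complex I, was 94.6 to 371 CPM with a median of 124 in Lgr5-high and 46.5 to 134 CPM with a median of 64.2 in Lgr5-low libraries. The groups overlapped only through 1 Lgr5-low library at 134 CPM. Its log2 fold change was 1.09 ± 0.24 (SE, adjusted p = 0.0115 by edgeR), and it fell to 0.70 (adjusted p = 0.0666) without Lgr5-high control replicate 1, which held 371 CPM, and to 0.56 (adjusted p = 0.181) without the libraries under 5 M counts. With only the control groups in the fit it was 1.09 (adjusted p = 0.0582), within the Xist-low class 1.41 (adjusted p = 0.284) and within the Xist-high class 0.74 (adjusted p = 0.0152). With a term based on Xist (sex is not labelled) or with limma-voom 4 members were called, and with a replicate block 2. The share of all genes called in those fits is not given here, so these counts show only that the call depended on the fit.

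The next members by p did not pass. mt-Nd6, the subunit read from the other strand, was 32.5 to 248 CPM with a median of 42.2 in Lgr5-high and 7.92 to 69.4 CPM with a median of 19.5 in Lgr5-low control libraries. All but 1 of the Lgr5-high values were at or below 45.4 CPM, and the log2 fold change was 1.38 ± 0.49 (adjusted p = 0.167 by edgeR). Single libraries decided this value: it was 0.56 (adjusted p = 0.573) without Lgr5-high control replicate 1, 1.85 (adjusted p = 0.0260, past the threshold) without Lgr5-low control replicate 3 and 0.33 (adjusted p = 0.807) without the libraries under 5 M counts. mt-Nd4, on the same messenger RNA as mt-Nd4l, was 3214 to 4701 CPM with a median of 4121 in Lgr5-high libraries. In Lgr5-low libraries it was 2485 to 3512 CPM with a median of 2998. Its log2 fold change was 0.41 ± 0.15 (adjusted p = 0.206 by edgeR), so the call on mt-Nd4l was not shared by the other gene of that RNA. Members with the lowest values were mt-Co1 at -0.15 ± 0.20 and mt-Rnr1 at -0.08 ± 0.37 on the log2 scale. Unadjusted p-values under 0.05 in the higher direction were found for 5 of 15 members (mt-Nd4l, mt-Nd6, mt-Nd4, mt-Nd2 and mt-Nd1), where 5.92% of all genes had them.

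On the cystine diet all 15 tested members had a positive log2 fold change in Lgr5-high against Lgr5-low cells, with a median of 0.46 beside -0.04 over all tested genes. Of them 1 passed, mt-Cytb, where 2.64% of all genes did. mt-Cytb, the mitochondrial subunit of complex III, was 53656 to 105509 CPM with a median of 70550 in Lgr5-high and 31955 to 57274 CPM with a median of 46525 in Lgr5-low libraries. Only 1 Lgr5-high library was below the highest Lgr5-low library. The log2 fold change was 0.71 ± 0.17 (SE, adjusted p = 0.0137 by edgeR). The call was lost without Lgr5-high cystine replicate 2 (0.58, adjusted p = 0.0789), Lgr5-high cystine replicate 7 (0.65, adjusted p = 0.0513), Lgr5-low cystine replicate 2 (0.65, adjusted p = 0.0548) or the libraries under 5 M counts (0.62, adjusted p = 0.0903). The other members near the threshold were mt-Atp6, a membrane subunit of the ATP synthase, at 0.58 ± 0.17 (adjusted p = 0.0520), and mt-Nd4l at 0.81 ± 0.24 (adjusted p = 0.0578 by edgeR). The count of called members depended on the fit: it was 6 with DESeq2 or an Xist-based term, 7 with a replicate block and 9 with limma-voom. The share of all genes called in those fits is not given here, so these counts cannot be set against a background. mt-Atp6 passed in 7 of 28 alternative settings, among them DESeq2 (0.62, adjusted p = 0.00733) and no normalization factors (0.40, adjusted p = 0.0334).

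mt-Atp6 was 33777 to 59993 CPM with a median of 38528 in Lgr5-high and 25006 to 34602 CPM with a median of 27656 in Lgr5-low cystine libraries. mt-Nd4l was 95.9 to 216 CPM with a median of 158 against 68.2 to 118 CPM with a median of 87.9. Both sets overlapped at their edges. In this comparison 8 of 15 members were higher in Lgr5-high cells at an unadjusted p under 0.05, where 6.82% of all genes were, and no member's groups were free of overlap, where 0.560% of all genes were higher and 0.736% lower without overlap. Gm29216 had a log2 fold change of 0.85 ± 0.25 (adjusted p = 0.0599 by edgeR), and mt-Co1 with its copies added had 0.81 ± 0.24 (adjusted p = 0.0574), against 0.31 ± 0.20 for mt-Co1 as listed. The Lgr5-high cystine libraries also differed in 8 macrophage markers, whose summed level was 20.4 to 535 CPM there and 27.9 to 110 CPM in Lgr5-low cystine libraries. By edgeR 7 of the 8 were higher, where 1.10% of all genes were. Markers of secretory cells moved with the populations as well. On both diets 5 of 5 goblet and 4 of 5 enteroendocrine markers were lower in Lgr5-high cells by edgeR, where 1.02% (control) and 1.54% (cystine) of all genes were. Of 4 epithelium markers, 1 was lower on control and 2 on cystine, and 1 of 3 tuft markers was lower on cystine. Goblet markers summed to 1544 to 3719 CPM in Lgr5-high and 4259 to 14009 CPM in Lgr5-low control libraries, and to 1637 to 4481 and 3951 to 7223 CPM on cystine. Enteroendocrine markers summed to 48.9 to 177 against 196 to 738 CPM on control and 59.3 to 194 against 255 to 617 CPM on cystine. No Paneth or enterocyte marker passed in either population comparison. The part of these markers in the mitochondrial values was not tested.

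**Figure D4:**
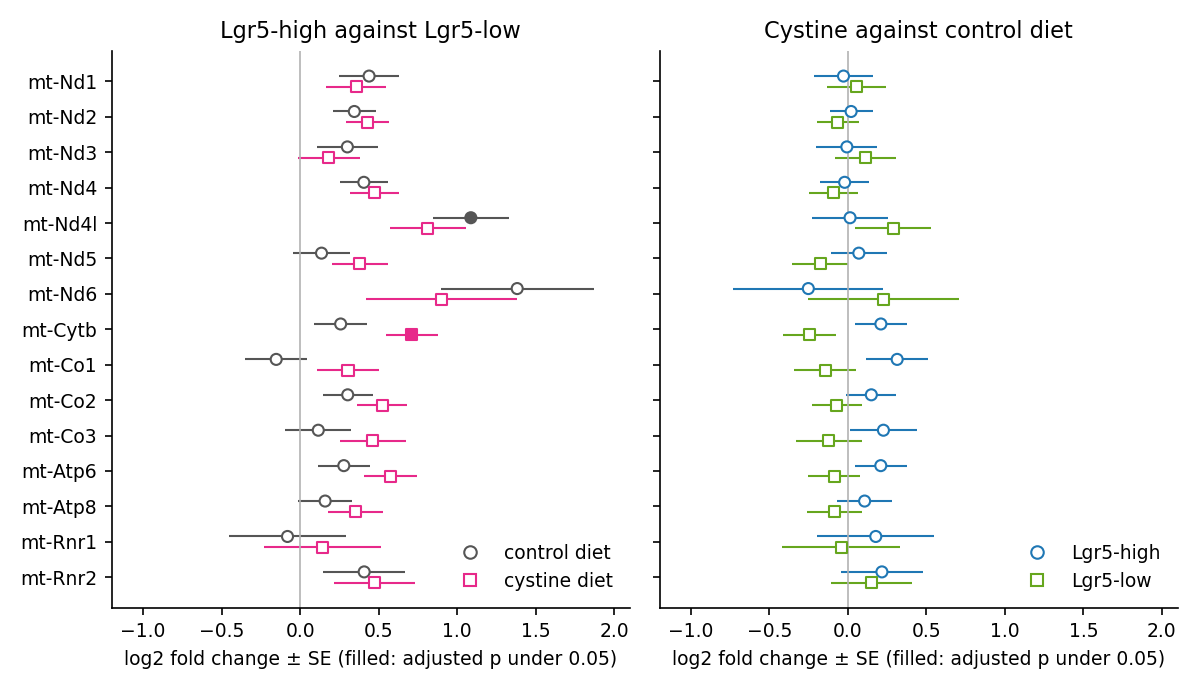
Log2 fold changes with SE from edgeR for the 13 protein-coding and 2 ribosomal RNA genes, with Lgr5-high against Lgr5-low for both diets (left) and cystine against control in each population (right). Filled symbols passed an adjusted p of 0.05. On the left nearly all points lie right of 0, with mt-Nd4l filled on control and mt-Cytb filled on cystine, and on the right points scatter around 0.

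The remaining levels by group follow the roles of the genes. Among complex I subunits, mt-Nd1 averaged 6821 ± 1882 CPM (SD, n = 7) in Lgr5-high control, 6690 ± 1542 in Lgr5-high cystine, 5030 ± 1540 in Lgr5-low control and 5223 ± 589 CPM in Lgr5-low cystine libraries. mt-Nd2 averaged 1981 ± 251, 2010 ± 236, 1559 ± 144 and 1493 ± 191 CPM in the same order of groups. mt-Nd3 averaged 103 ± 24.2, 102 ± 18.2, 83.2 ± 29.3 and 89.95 ± 20.2 CPM. These 3 were lower on average in Lgr5-low cells on both diets, and none passed the test. mt-Nd4 averaged 4023 ± 662, 3966 ± 709, 3036 ± 386 and 2851 ± 518 CPM, and mt-Nd5 averaged 316 ± 110, 332 ± 71.3, 288 ± 51.8 and 255 ± 58.2 CPM.

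Among complex IV subunits, mt-Co2, which takes electrons from cytochrome c, averaged 6547 ± 1252, 7262 ± 1133, 5306 ± 954 and 5054 ± 787 CPM in the same order. mt-Co3 averaged 38858 ± 7076, 45460 ± 8901, 35860 ± 14114 and 32957 ± 10079 CPM, with the wide Lgr5-low spread that followed the Xist classes. Of the ATP synthase, mt-Atp6 averaged 37289 ± 6619, 43117 ± 9225, 30743 ± 5510 and 28929 ± 3981 CPM and mt-Atp8 274 ± 59.4, 295 ± 68.6, 245 ± 54.7 and 231 ± 52.7 CPM. mt-Cytb averaged 63424 ± 8487, 73369 ± 16654, 53026 ± 7679 and 44775 ± 7905 CPM. None of these differences but mt-Cytb between populations on cystine passed the test.

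The ribosomal RNAs of the mitochondrial ribosome showed no called difference, and a few libraries set their spread. mt-Rnr2 averaged 22059 ± 14228, 25636 ± 6896, 16623 ± 2227 and 18458 ± 9841 CPM and mt-Rnr1 averaged 9681 ± 3958, 10949 ± 3177, 10234 ± 4570 and 9929 ± 10817 CPM in Lgr5-high control, Lgr5-high cystine, Lgr5-low control and Lgr5-low cystine libraries. The ratio of ribosomal to messenger RNA counts was 0.444 in Lgr5-high control replicate 1 and 0.489 in Lgr5-low cystine replicate 1, and 0.118 to 0.314 in the other 26 libraries. Both had little more than 4 M counts (4.05 and 4.11 M). The 4 highest ratios all came from libraries under 5 M counts. Depth and preparation were not tested as its source.

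**Figure D5:**
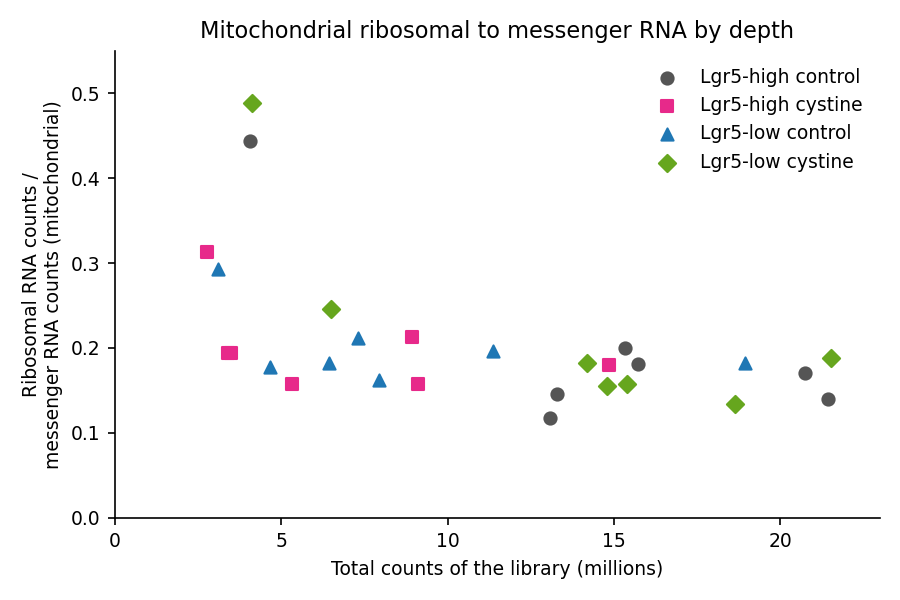
Ratio of mitochondrial ribosomal RNA counts to mitochondrial messenger RNA counts against library size in M counts, 1 point per library and 1 symbol per group. Lgr5-high control replicate 1 (0.444) and Lgr5-low cystine replicate 1 (0.489) stand above the rest, both near 4 M counts.

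The diet comparisons ask whether the cystine diet changed these genes in either population. No mitochondrially encoded gene passed the test in Lgr5-high cells, where 0.168% of all genes passed, all of them higher, nor in Lgr5-low cells, where none of the 12495 did, and DESeq2 and limma-voom also called 0 members. As listed, no member had an unadjusted p under 0.05 in either (edgeR), where 4.27% of all genes did in Lgr5-high and 2.97% in Lgr5-low cells. No member's diet groups were free of overlap either, where 0.152% of all genes were higher and 0.064% lower without overlap in Lgr5-high cells, and 0.04% and 0.024% in Lgr5-low cells. In Lgr5-high cells 11 of 15 members had a positive log2 fold change, with a median of 0.11 beside -0.02 over all genes. The 3 of lowest p were mt-Co1 (0.31 ± 0.20), mt-Atp6 (0.21 ± 0.17) and mt-Cytb (0.21 ± 0.17). mt-Co1 was 617 to 1136 CPM with a median of 829 on control and 776 to 1279 CPM with a median of 1121 on cystine, so the ranges overlapped widely. With its copies added, mt-Co1 stood at 0.68 ± 0.24 in Lgr5-high cells (unadjusted p = 0.00764, adjusted p = 0.646 by edgeR) and Gm29216 at 0.69 ± 0.25 (adjusted p = 0.707), and neither passed. mt-Cytb was 53828 to 76560 CPM with a median of 60080 on control, and its lowest value on cystine, 53656 CPM, was about the same. mt-Atp6 was 30436 to 48539 CPM with a median of 36675 on control, within which its cystine median also lay. The same macrophage markers were 21.2 to 49.0 CPM on control and 20.4 to 535 CPM on cystine in Lgr5-high libraries, with 7 of 8 higher by edgeR, and 6 dissociation stress genes summed to 5.06 to 12.8 and 9.53 to 39.2 CPM.

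In Lgr5-low cells 5 of 15 members had a positive log2 fold change, with a median of -0.07. The 3 of lowest p were mt-Cytb (-0.24 ± 0.17), mt-Nd4l (0.29 ± 0.24) and mt-Nd5 (-0.17 ± 0.18). mt-Cytb was 43909 to 64224 CPM with a median of 51425 on control, overlapping the cystine range given above. mt-Nd5, a large complex I subunit, was 241 to 391 CPM with a median of 287 on control and 195 to 373 CPM with a median of 246 on cystine.

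For the difference between the 2 diet effects, no member and no gene of the table passed (edgeR, 0%), and no member as listed had an unadjusted p under 0.05, where 3.32% of all genes did. The 3 members of lowest p were mt-Cytb at 0.45 ± 0.24 (unadjusted p = 0.0628), mt-Co1 at 0.46 ± 0.28 (0.110) and mt-Atp6 at 0.30 ± 0.24 (0.215). Their signs were positive, and 11 of 15 members were positive. With its copies added, mt-Co1 was at 0.85 ± 0.34 (unadjusted p = 0.0160, adjusted p = 0.9998 by edgeR). With an Xist-based term and no copies added it was at 0.47 ± 0.22 (unadjusted p = 0.0365, adjusted p = 0.998 by edgeR).

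The balance between complex I and complex IV messenger RNAs was described without a test. It rests on few genes. Of the mitochondrial counts mt-Co3 held 21.0% on average, against 3.34% for mt-Co2 and 0.532% for mt-Co1 as listed. Among the Nd genes mt-Nd1 (3.29%) and mt-Nd4 (1.93%) held the most. In Lgr5-high cells, counts of the Nd genes divided by counts of the Co genes were 0.290 ± 0.0261 (SD, n = 7) on control, from 0.268 through 0.282 to 0.345, and 0.248 ± 0.0176 on cystine, from 0.231 through 0.240 to 0.275. All 7 cystine libraries were below the control median, and the groups overlapped at their edges. The difference was -0.0418 ± 0.0119 (SE), -0.0247 without the libraries under 5 M counts and -0.0485 with the nuclear copies added. In Lgr5-low cells the ratio was 0.251 ± 0.0403 on control and 0.270 ± 0.0572 on cystine, and there it separated the Xist classes, at 0.186 to 0.216 in 5 Xist-low and 0.274 to 0.321 in 9 Xist-high libraries. Once the nuclear copies were added, those classes overlapped.

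Nuclear genes that serve the mitochondrial genome showed scattered calls. Of 17 genes of mitochondrial transcription and replication, 2 were higher in Lgr5-high cells on control (0.784% of all genes were higher) and 2 on cystine (1.10%), and none was lower. Mgme1, an exonuclease of mitochondrial DNA, was higher on both diets, with log2 fold changes of 0.80 ± 0.20 (adjusted p = 0.0248) and 1.02 ± 0.20 (adjusted p = 0.00281 by edgeR). It was 56.0 to 91.9 CPM with a median of 67.9 in Lgr5-high control and 22.9 to 67.3 CPM with a median of 40.1 in Lgr5-low control libraries, and 55.5 to 92.2 against 23.8 to 41.7 CPM on cystine, where the groups did not overlap. Mterf3, a transcription regulator, was higher on control (1.29 ± 0.29, adjusted p = 0.0131 by edgeR), and Ssbp1, the single-stranded DNA binding protein of mitochondria, on cystine (0.60 ± 0.17, adjusted p = 0.0467).

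No gene of 24 for RNA processing and decay or of 14 translation factors passed on either diet. Of 10 biogenesis regulators, the transcription factor Myc was higher in Lgr5-high control cells (1.22 ± 0.25, adjusted p = 0.00532 by edgeR), where 0.784% of all genes were higher. Tfam, which packages mitochondrial DNA and starts its transcription, was at -0.06 ± 0.22 on control and 0.12 ± 0.22 on cystine, and Polrmt, the mitochondrial RNA polymerase, at 0.25 ± 0.53 and -0.42 ± 0.53. Lrpprc and Slirp, which stabilise mitochondrial messenger RNAs, were at -0.54 ± 0.25 and -0.09 ± 0.20 on control and at -0.26 ± 0.25 and 0.17 ± 0.20 on cystine. Ppargc1a, a coactivator of mitochondrial biogenesis, was at -0.19 ± 0.44 and -0.64 ± 0.44. None of these 5 passed the test in any comparison.

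The nuclear-encoded subunits of the respiratory chain had median log2 fold changes of the opposite sign to the mitochondrially encoded ones, but on cystine their median lay near that of all genes. Of 81 tested, 17 had a positive and 64 a negative log2 fold change in Lgr5-high against Lgr5-low on control. The median was -0.20, beside -0.01 over all tested genes. For the cystine diet 34 were positive and 47 negative, with a median of -0.08 beside -0.04 over all tested genes. On control 2 were lower (1.02% of all genes were lower), Atp5g3 of the ATP synthase (-0.59 ± 0.14, adjusted p = 0.0147 by edgeR) and Uqcr11 of complex III (-0.51 ± 0.13, adjusted p = 0.0278). On cystine 5 were lower (1.54% of all genes), and none was higher. These were Uqcrfs1 (-1.11 ± 0.20, adjusted p = 0.00120) and Cyc1 (-0.82 ± 0.17, adjusted p = 0.00495 by edgeR) of complex III, Cox5a (-0.84 ± 0.18, adjusted p = 0.00613) and Cox7a1 (-1.45 ± 0.33, adjusted p = 0.0127) of complex IV, and Ndufb10 (-0.71 ± 0.20, adjusted p = 0.0491) of complex I. In complex III on cystine, the mitochondrially encoded mt-Cytb was thus higher in Lgr5-high cells while Uqcrfs1, the Rieske iron-sulfur subunit, was lower, at 19.9 to 87.8 CPM with a median of 62.2 against 106 to 141 CPM with a median of 119, with no overlap.

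Of 78 mitochondrial ribosomal protein genes, 1 was lower on each diet, near the share of all genes that were lower (1.02% on control and 1.54% on cystine). They were Mrpl51 on control (-0.57 ± 0.15, adjusted p = 0.0304) and Mrps34 on cystine (-0.95 ± 0.24, adjusted p = 0.0229 by edgeR), and none was higher. No gene of these 6 lists passed for the diet in either population or for the difference of diet effects.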

How the data were processed

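Per the labels' protocols, poly(A)-selected directional libraries were made from total RNA. The authors deposited a gene table of estimated counts in whole numbers, made with Salmon 1.3.0 and build mm10, per the submitters' processing notes. Which annotation, strand setting and gene-level summing they used is not given in the sources used here. The 28 columns were assigned by description. Genes were tested with edgeR 4.0.16 (R 4.3.3; TMM factors, filterByExpr, robust quasi-likelihood fit, a mean per group, Benjamini-Hochberg adjustment, threshold 0.05), checked on simulated data. The common biological coefficient of variation was 0.629. Shares and ratios use raw counts and are described without a test. Nuclear copies were found with blastn 2.17.0 on GENCODE M21. Alternatives were DESeq2 1.42.0, limma-voom (limma 3.58.1), other scalings and filters, a replicate block, an Xist-based term, copies added and libraries left out. Fits within each Xist class, and all alternatives for the ratio of complexes, were added after seeing the data. All 15 tested members were given by group, with values per library for members called and for the 3 of lowest p. From the lists, called members and Tfam, Polrmt, Lrpprc, Slirp and Ppargc1a were named. The members and lists were chosen with earlier results of these data known. Unnamed genes (1243) stayed in the fit.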

Additional observations from a re-analysis of the deposited data

Results flagged for a closer look

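Of 76 sets of 7 values, 16 held a library far from the other 6 of its group, and chance gives about 1 in 20. Lgr5-high control replicate 1 stood above its group in mt-Nd4l (371 CPM, others 94.6 to 146), mt-Nd5 (556 CPM), mt-Nd6 (248 CPM), mt-Rnr1 (18195 CPM), mt-Rnr2 (54134 CPM) and the ratio of ribosomal to messenger RNA (0.444). Lgr5-low cystine replicate 1 stood above its group in mt-Rnr1 (34306 CPM), mt-Rnr2 (39879 CPM), the same ratio (0.489) and the mitochondrial share (19.2%). Lgr5-low control replicate 3 was high in mt-Nd4l (134 CPM), and Lgr5-low control replicate 7 in mt-Nd5 (391 CPM) and the ribosomal to messenger RNA ratio (0.293). That ratio was also high in Lgr5-high cystine replicate 6 (0.314). Gm29216 was high in Lgr5-low cystine replicate 7 (17118 CPM), and its ratio to mt-Co1 in Lgr5-high cystine replicate 4 (33.7).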

How the results depend on the processing

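Of the members called in Lgr5-high against Lgr5-low on control (1), 0 remained when the fit held just those groups, without libraries under 5 M counts and in the Xist-low class. With a replicate block 2 were called, and 4 with an Xist-based term or limma-voom. Leaving out each library gave 0 to 2, with 0 without Lgr5-high control replicate 1 and 2 without Lgr5-low control replicate 3. On cystine (1), 2 were called without normalization factors and with a fit of just those groups. There 6 were called with an Xist-based term, DESeq2 or the Xist-high class, 7 with a replicate block and 9 with limma-voom. On neither diet is the share of all genes called in these settings given beside the counts. Leaving out each library gave 0 to 3, with 0 without Lgr5-high cystine replicates 2 or 7 or Lgr5-low cystine replicate 2, 3 without Lgr5-low control replicate 3 or Lgr5-low cystine replicate 1, and 2 without Lgr5-high control replicate 1, Lgr5-high cystine replicate 3 or Lgr5-low control replicates 4 or 6. Without the libraries under 5 M, mt-Nd4l was called there in place of mt-Cytb. Diet comparisons and their difference gave 0 in every setting run. Replicate numbers were not taken as pairs, since correlations of same-numbered deviations exceeded 0.1 in 3, 1, 0 and 3 of 7 pairs over the 4 comparisons, and 4, 3, 0 and 2 of 7 libraries matched best with their own number. On control all 7 correlations between populations were positive, at 0.0510 to 0.237 (median 0.0903, against -0.0429 for other numbers), and the Xist classes follow the numbers in both populations, so a shared source is not settled. The share difference on control moved from 2.21 to 4.75 percentage points in the Xist-low class, and leaving out a library gave 1.56 to 2.84; the ranges were 3.90 to 5.51 on cystine, 0.311 to 1.92 and -1.99 to -1.01 for diet in Lgr5-high and Lgr5-low, and 1.69 to 3.30 for the difference of diet effects. For the ratio of complex I to IV, leaving out a library gave -0.0462 to -0.0326, and the other settings gave -0.0247 without libraries under 5 M, -0.03 and -0.0597 in the Xist-high and Xist-low classes and -0.0485 with copies added. For diet in Lgr5-low cells, mt-Nd4l (-0.23) and mt-Nd5 (0.19) turned sign in the Xist-low class. Without normalization factors the median of all genes was -0.22 on cystine between populations, and 7 of 15 members were positive for diet in Lgr5-high cells (11 with TMM factors). The causes were not tested. Depth limits low genes such as mt-Nd6 and the transfer RNAs.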
